A study of Mus musculus with 9 samples.

Results

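The comparison described here sets the nuclei of day 21 mouse oocytes that lack MTR4 against the nuclei of wild-type (WT) oocytes of the same age. MTR4 is an RNA helicase of the nucleus, listed in the table under its older gene symbol Skiv2l2. Nuclei had been taken out of the oocytes by micromanipulation, 10 per library, and total RNA was sequenced after removal of ribosomal RNA. The labels list 3 libraries of WT nuclei and 2 libraries of MTR4-null nuclei, and the table holds 1 value per gene for each group. Of 23235 genes in the table, the 13805 with at least 1 FPKM (fragments per kilobase of transcript, scaled to the mapped fragments of the library) in either nuclear column were used. The difference of a gene is log2 of (MTR4-null + 1) over (WT + 1), so positive values mean more signal in the MTR4-null nucleus, and a gene is counted as higher or lower when this difference is at least 1, a 2-fold ratio on that scale. With 1 value per group no difference could be set against the spread between libraries, so no test, error or p-value is given. The sources used here do not say how the null allele was made, in which cells, or which exons are missing. Where a pair of FPKM values follows a gene name, the first is WT and the second MTR4-null, both from nuclei.

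MTR4 unwinds RNA and threads it into the nuclear RNA exosome, the multi-subunit nuclease that trims and destroys transcripts. It works with adaptor proteins that bring it to different substrates: in the nucleolus to precursors of ribosomal RNA, elsewhere to promoter-upstream and enhancer RNAs, introns, extended small nucleolar RNAs and unspliced or prematurely ended transcripts. A growing oocyte transcribes heavily and stores much of its mRNA, and transcription falls silent before meiosis resumes.

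The labels and the marker genes were checked first. Skiv2l2 stood at 16.2 FPKM in WT nuclei against 2.91 FPKM in MTR4-null nuclei. All 18 oocyte markers listed for this check were at 1 FPKM or more in both columns. Their sum was 12523 FPKM for WT nuclei, 16201 FPKM for MTR4-null nuclei and 15564 FPKM for WT cytoplasm. Oocyte mRNAs were thus prominent in the WT nuclear column too, at a somewhat smaller sum than in the cytoplasmic one. The WT nuclear and cytoplasmic columns summed to 854286 and 416740 FPKM, or 355798 and 398659 FPKM without small RNA genes. The amount of cytoplasm carried along with the nuclei was not measured. Markers of other ovarian cells were low: 20 granulosa cell markers summed to 197 and 160.2 FPKM, 7 theca and stromal markers to 5.85 and 20.8 FPKM, and 7 endothelial and surface markers to 28.4 and 25.5 FPKM. The granulosa receptor gene Fshr was at 0.427 and 0.180 FPKM. Of the 20 granulosa markers 7 were higher (35%) and 4 lower (20%), with a median difference of 0.33. Over all genes the shares were 24.8% and 12.7%. Only 8 of the 20 were at 1 FPKM or more in both columns. Hsd17b1 had a difference of 2.33 and Kctd14 of 1.97, while Inhbb had -2.28. Of 15 blood and immune markers only Alas2 reached 1 FPKM, at 2.34 and 1.10. Among genes that other ovarian or immune cells express strongly, the granulosa list member Cyp11a1 was at 21.3 and 1.47 FPKM, and H2-Aa, an MHC class II gene outside the lists, at 31.0 and 1.31 FPKM. Both were among the 12 largest differences downward, and the part of other cells in them was not tested. The theca and stromal sum was the one that was several times larger in MTR4-null, and its part in the other differences was not tested. In pooled nuclei, fewer cells of a type and less RNA per cell cannot be told apart.

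In the MTR4-null nucleus 3417 of the 13805 genes (24.8%) were higher and 1753 (12.7%) were lower, with a median difference of 0.22. The middle 50% of genes lay between -0.49 and 0.99. Differences of 4-fold or more were counted for 1118 genes in the higher and 352 in the lower direction, and of 8-fold or more for 348 and 71. The excess of higher genes depended on how the columns were scaled: 66.1% of all genes past 2-fold were higher as deposited, 57.0% after centring by the median log ratio, and 49.2% after quantile normalization. In 1670 genes only the MTR4-null column reached 1 FPKM and in 1275 only the WT column did.

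**Figure D1:**
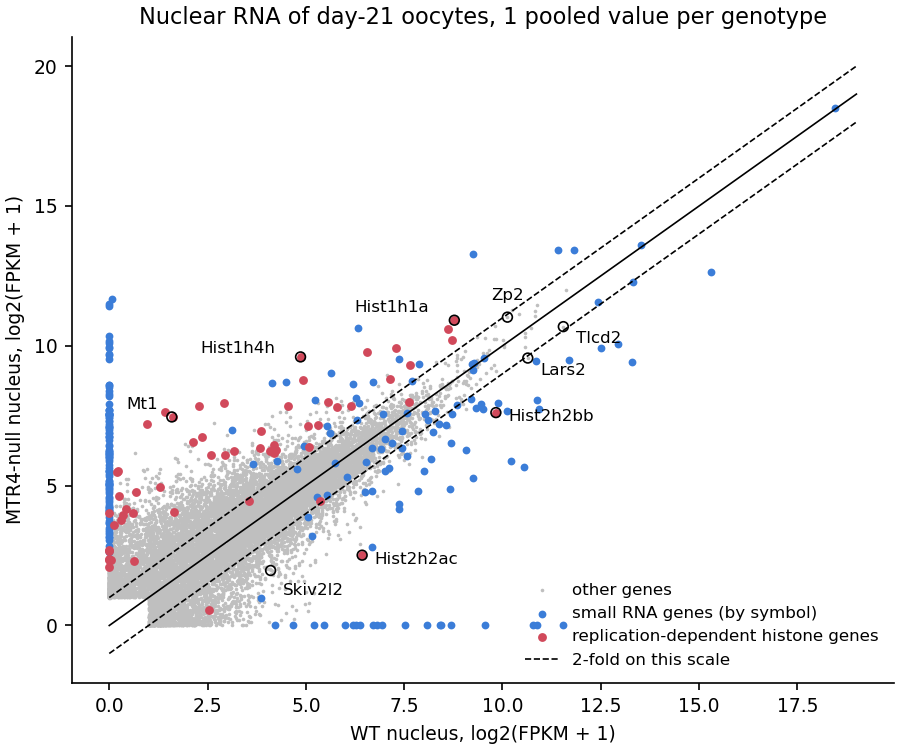
Nuclear RNA level of each of 13805 genes in WT (x axis) and MTR4-null oocytes (y axis), both as log2(FPKM + 1); the solid line marks equality and the dashed lines a 2-fold ratio. Most histone genes lie far above the upper dashed line, while small RNA genes lie on both sides and often at 0 in one column.

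Replication-dependent histone genes gave the group with the highest share past 2-fold among the lists of at least 10 genes. These genes package newly copied DNA, have no introns, and their mRNAs normally end in a short stem-loop in place of a poly(A) tail. That end is shown here as the processing signal characteristic of these mRNAs, only for genes in which a search found it: the 5 with the largest differences upward and the 2 that were lower. Hist1h4k, Hist1h1b and Hist1h2ai, with differences of 5.83, 5.31 and 5.30, and Hist2h2bb, with -2.22, had no match. The stem-loop, 6 paired bases around a loop of 4, is in capitals with 5 bases of flank on each side, 5′ to 3′.

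Hist1h3c: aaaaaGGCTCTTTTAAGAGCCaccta

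Hist1h2ag: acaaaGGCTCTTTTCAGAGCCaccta

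Hist1h2bj: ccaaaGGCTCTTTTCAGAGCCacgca

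Hist1h4f: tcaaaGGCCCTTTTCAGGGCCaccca

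Hist1h4h: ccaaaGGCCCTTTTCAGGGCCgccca

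Hist2h2ac: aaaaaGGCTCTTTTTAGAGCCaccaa

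Hist1h1t: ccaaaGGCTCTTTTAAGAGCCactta

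The first 5 belong to genes that were higher in the MTR4-null nucleus and the last 2 to genes that were lower. In the GENCODE M21 transcripts on GRCm38 these sites lie at chr13:23745042-23745067 (Hist1h3c), chr13:22042478-22042503 (Hist1h2ag), chr13:22043633-22043658 (Hist1h2bj), chr13:23551286-23551311 (Hist1h4f), chr13:23531453-23531478 (Hist1h4h), chr3:96220413-96220438 (Hist2h2ac) and chr13:23696520-23696545 (Hist1h1t). Hist1h3c, Hist1h2ag, Hist1h4f and Hist2h2ac are read from the minus strand. A search of the last 250 bases found such a stem-loop in 21 of 57 measured histone genes, in 19 of 51 that were higher and in 2 of 3 that were lower. The commonest of the 7 forms stood in 10 genes. The search read only single-exon coding transcripts, which 56 of the 57 genes could at most supply. It asked for a stem starting with GG and for T at fixed places of the loop. No match says only that no stem-loop of this form was found near the end of a transcript read, or that none was read.

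Of the 68 histone genes listed, 57 were measured, 51 of them higher and 3 lower, with a median of 2.63. By type, 12 of 12 H4 genes, 16 of 17 H2B genes, 10 of 11 H2A genes, 5 of 6 linker H1 genes and 8 of 11 H3 genes were higher. Summed levels went from 963 to 5942 FPKM for H4 and from 479 to 2342 FPKM for H1, against 1204 and 1705 FPKM for H2B, where one gene that was lower, Hist2h2bb, made up most of the WT sum. In the large Hist1 cluster 43 of 46 genes were higher and 1 was lower, whereas in the Hist2 cluster 4 of 7 were higher and 2 were lower. Members already at 10 FPKM or more in the WT nucleus, which the choice by level in MTR4-null cannot have added, were higher in 22 of 27 cases with a median of 2.01. In the cytoplasm 33 of the 57 were higher in MTR4-null and 2 were lower, with a median of 1.29. Those lower there were Hist2h2ac and Hist2h2bb, with -4.20 and -2.77. The sum over the 57 went from 3579 to 12837 FPKM in the nucleus and from 4807 to 8439 FPKM in the cytoplasm.

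The H4 gene Hist1h4h was at 28.1 and 777 FPKM, a difference of 4.74. Hist1h3c was at 1.69 and 196 FPKM and Hist1h4f at 3.86 and 230.4 FPKM, so both went from a few FPKM to a level near that of abundant histone genes. Hist1h4i stood at 92.4 and 887 FPKM, Hist1h4b at 29.5 and 441 FPKM, and the linker histone gene Hist1h1c at 22.2 and 228 FPKM. Members of high level had smaller ratios: Hist1h1a, with the largest linear gain outside small RNAs and predicted models, was at 437 and 1929 FPKM, and Hist1h4c at 392 and 1534 FPKM. Downward, Hist2h2ac was at 85.3 and 4.71 FPKM, Hist2h2bb at 910.4 and 195 FPKM, and the testis-type linker gene Hist1h1t at 4.82 and 0.454 FPKM. Between the limits lay 3 H3 genes: Hist1h3e at 195 and 252 FPKM, Hist1h3i at 10.6 and 20.6 FPKM, and Hist2h3b at 39.9 and 21.04 FPKM. Many of these genes have near-identical copies, so the split of reads among them is uncertain, and the sums by type are the firmer values.

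**Figure D2:**
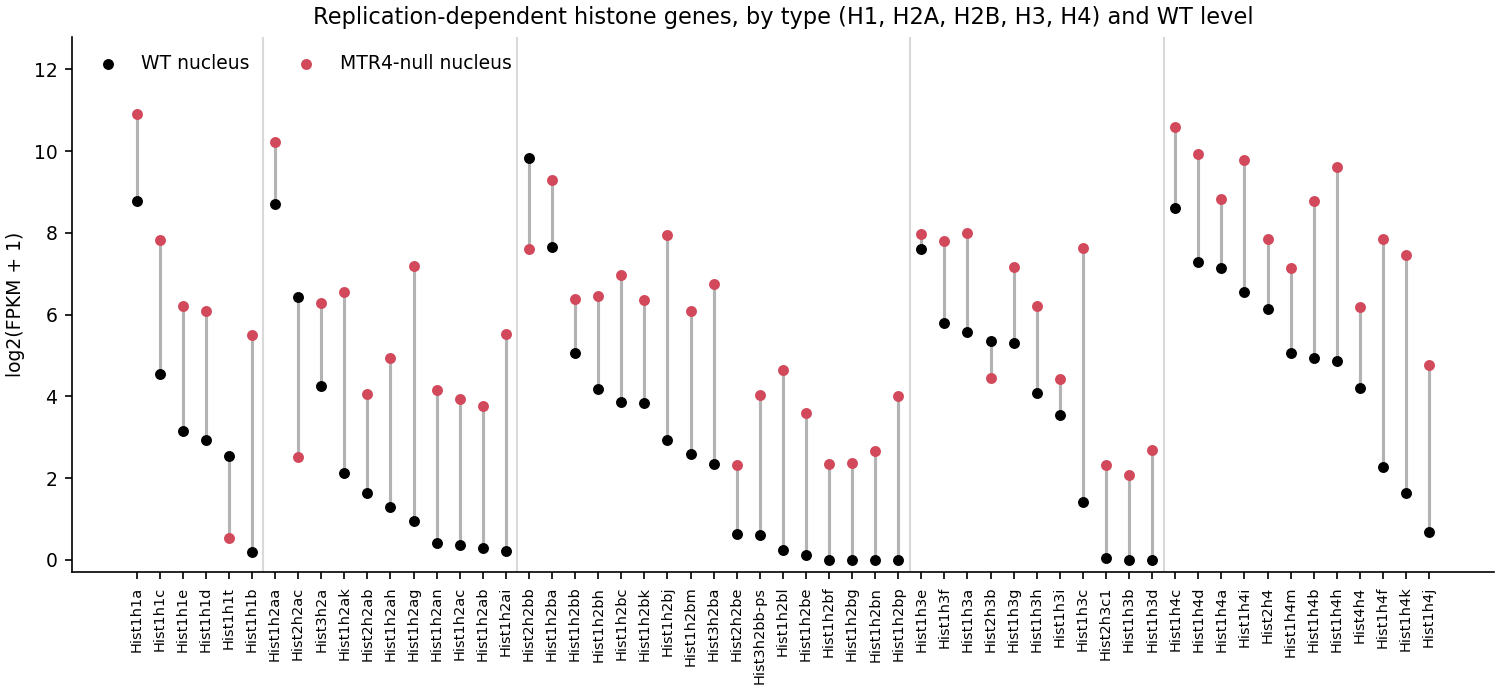
Level of each measured replication-dependent histone gene as log2(FPKM + 1) in the WT nucleus (black) and the MTR4-null nucleus (red), 1 pooled value each, grouped by histone type and ordered by WT level. Red lies above black in 51 genes by 2-fold or more, and Hist2h2ac, Hist2h2bb and Hist1h1t are the 3 that lie at least 2-fold below.

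Several histone genes are arranged head to head, with an H2A and an H2B gene read in opposite directions from a shared stretch of promoter. Of the measured genes, 6 such pairs had RefSeq starts within 500 bases of each other, and in 6 of 6 both partners were higher. Since 10 of 11 H2A and 16 of 17 H2B genes were higher in all, this count does not set the pairs apart. The pair Hist1h2bj and Hist1h2ag had 6.61 and 0.948 FPKM in WT, against 248 and 146 FPKM in MTR4-null. Hist1h2ai and Hist1h2bl had 0.169 and 0.180 FPKM in WT, against 45.01 and 23.9 FPKM in MTR4-null. The stretches between the starts of these 2 pairs are printed as examples, being the pairs with the largest differences. They are RefSeq sequence of GRCm38.p6 on the plus strand, at chr13:22042950-22043197 and chr13:21716184-21716411. CCAAT boxes, read as CCAAT on either strand, are in capitals.

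Hist1h2bj and Hist1h2ag: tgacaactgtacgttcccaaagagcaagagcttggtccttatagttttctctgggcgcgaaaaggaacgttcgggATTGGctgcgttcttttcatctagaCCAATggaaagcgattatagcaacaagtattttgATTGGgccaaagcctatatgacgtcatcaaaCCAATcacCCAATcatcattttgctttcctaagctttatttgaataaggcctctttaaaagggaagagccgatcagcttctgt

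Hist1h2ai and Hist1h2bl: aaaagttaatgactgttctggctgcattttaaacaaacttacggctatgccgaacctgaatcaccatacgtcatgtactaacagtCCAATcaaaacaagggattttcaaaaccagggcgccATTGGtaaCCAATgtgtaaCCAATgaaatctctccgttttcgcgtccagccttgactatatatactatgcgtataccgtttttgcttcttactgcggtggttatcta

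The first stretch holds 5 CCAAT boxes and the second holds 4. Among 32851 RefSeq promoters, read over the 250 bases before the start and leaving out chromosome 18, 33.8% held at least 1, 0.840% at least 4 and 0.213% at least 5. The other 4 pairs held 3 to 4 CCAAT boxes. Neither printed stretch held the octamer ATTTGCAT, present in 1.60% of promoters, or TATAAA, present in 12.4%, searched on both strands. Of the pairs not printed, Hist1h2aa and Hist1h2ba held 1 octamer and 2 TATAAA, Hist1h2bk and Hist1h2ah 1 octamer, and Hist1h2bp and Hist1h2an 1 TATAAA. These counts describe the letters only.

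Factors that make and remove histone mRNA were measured beside the histone genes. Of 17 such genes 5 were higher (29.4%, near the 24.8% of all genes) and 1 was lower, with a median of 0.47. The one that was lower was Slbp, whose protein binds the stem-loop, at 508 and 243 FPKM. The higher ones were Mblac1, encoding a nuclease that acts on histone pre-mRNA, at 0.304 and 20.3 FPKM, Lsm1 at 9.52 and 41.3 FPKM, the NELF subunit gene Rdbp at 19.01 and 50.3 FPKM, Ctif at 4.04 and 11.1 FPKM, and the U7 particle subunit gene Lsm11 at 5.50 and 12.5 FPKM. Npat, which switches on histone transcription, was at 6.23 and 9.03 FPKM. Replacement histones, whose genes have introns in most cases and whose mRNAs mostly carry a poly(A) tail, were higher in 4 of 13 cases and lower in 0. Of the 4, H2afj, H1f0 and H2afx had a single exon in their longest coding transcript. So had H1fx and Hils1, which were between the 2-fold limits. The share of higher genes was 30.8%, near the 24.8% of all genes, and the median was 0.70. H2afz was at 46.6 and 167 FPKM and H2afj at 15.3 and 65.7 FPKM, while the oocyte linker histone gene H1foo was at 1531 and 1407 FPKM.

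Genes were next ranked by difference among those with at least 5 FPKM in the higher and 1 FPKM in the lower column, small RNAs and predicted models left out. Of the 12 genes with the largest difference upward 10 had a single exon in their longest annotated coding transcript, but 7 of these were histone genes. Of the 5 that were no histone genes, Mt1, Mocs3 and Irf2bp1 had 1 exon by this measure and Klhl21 and Lzts1 had 4. Another annotated transcript of Mt1 has 3 exons, so Mt1 is not an intronless gene. The 12 downward held 1 single-exon gene, the histone gene Hist2h2ac. Mt1, the gene of a metal-binding metallothionein, was at 2.01 and 175 FPKM. Mocs3, which activates the molybdenum cofactor pathway, was at 2.80 and 88.7 FPKM, the transcriptional corepressor gene Irf2bp1 at 3.27 and 85.0 FPKM, the ubiquitin ligase adaptor gene Klhl21 at 2.98 and 85.1 FPKM, and Lzts1 at 1.46 and 46.9 FPKM. Outside this ranking, Rpl26, a ribosomal protein gene, was listed at 0.00107 and 68.5 FPKM. Of 87 cytosolic ribosomal protein genes 85 were at 1 FPKM or more in both columns. The part of read assignment in the WT value of Rpl26 was not tested. At the other end stood the cytokine gene Il17b, at 36.2 and 1.24 FPKM, followed after Hist2h2ac by Pla2g4e, a phospholipase gene, at 35.9 and 1.56 FPKM, and the MHC class II gene H2-Aa at 31.0 and 1.31 FPKM. Further down the same ranking were the mitochondrial calcium channel gene Ccdc109b at 82.8 and 6.56 FPKM, the syntaphilin gene Snph at 30.2 and 2.04 FPKM, Rbm44, a germ cell RNA-binding protein gene, at 29.0 and 2.39 FPKM, and Alad, of haem synthesis, at 36.7 and 3.83 FPKM. The cell adhesion gene Nrcam was at 18.8 and 1.505 FPKM. Gbp7, of the interferon-induced GTPases, was at 26.9 and 2.05 FPKM, the steroid synthesis gene Cyp11a1 at 21.3 and 1.47 FPKM, and the dynein gene Dnahc2 at 16.6 and 1.27 FPKM, and these 3 were less than 2-fold apart in the cytoplasm. Of these 24 genes, 11 of the 12 upward and 9 of the 12 downward were also at least 2-fold apart the same way in the cytoplasm, whose columns are separate from the nuclear ones. Over all genes higher in the nucleus that share was 40.04%, and over all lower in the nucleus 41.2%.

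In absolute terms the largest gains besides Hist1h1a and Hist1h4c were in abundant oocyte mRNAs. Padi6, needed for the cytoplasmic lattices of the egg, was at 1203 and 2517 FPKM, the zona pellucida gene Zp2 at 1116 and 2082 FPKM, the lactate dehydrogenase gene Ldhb at 1875 and 2819.6 FPKM, and Zbed3, of the subcortical maternal complex, at 3156 and 4109 FPKM. The largest losses were those of Tlcd2, from 2991 to 1646 FPKM, the mitochondrial tRNA synthetase gene Lars2, from 1598 to 755 FPKM, Hist2h2bb, the oocyte gene C86187, from 1519.7 to 989 FPKM, the chaperone gene Hspa8, from 533 to 214 FPKM, and Slbp, from 508 to 243 FPKM.

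Differences followed gene structure across all coding genes. Among 317 single-exon coding genes other than histones 51.7% were higher and 13.9% lower, with a median of 1.06. The median was smaller in each further class of exon number: 0.59 at 2 exons, 0.39 at 3 to 4, 0.32 at 5 to 8, 0.15 at 9 to 16 and -0.02 at 17 or more, where 11.7% of 2591 genes were higher and 12.7% lower. Restricting the first class to 259 genes with 1 exon in every annotated transcript gave a median of 1.10, with 140 higher and 39 lower. Of these 317 single-exon genes, 188 were at 1 FPKM or more in both columns, 89 in MTR4-null alone and 40 in WT alone. Base composition moved in the same direction: from the lowest to the highest of 5 equal groups by GC content the share of higher genes went from 13.97% to 36.4% and the share of lower genes from 17.3% to 7.94%. The gradient with exon number was present within each of 3 equal GC groups. In the lowest GC group the median was 0.84 for single-exon genes and -0.17 for genes with 9 or more exons, and in the highest it was 1.26 and 0.37. Transcript length gave a gradient too. From the shortest to the longest of 5 equal groups the median went from 0.33 to 0.02 and the share of higher genes from 29.1% to 15.8%. Exon number and length were not separated. Nor was the gradient confined to the nucleus: the cytoplasmic median went from 0.42 at 1 exon to -0.60 at 17 or more. FPKM is not corrected here for GC content, and the part of library preparation in the GC gradient was not tested.

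**Figure D3:**
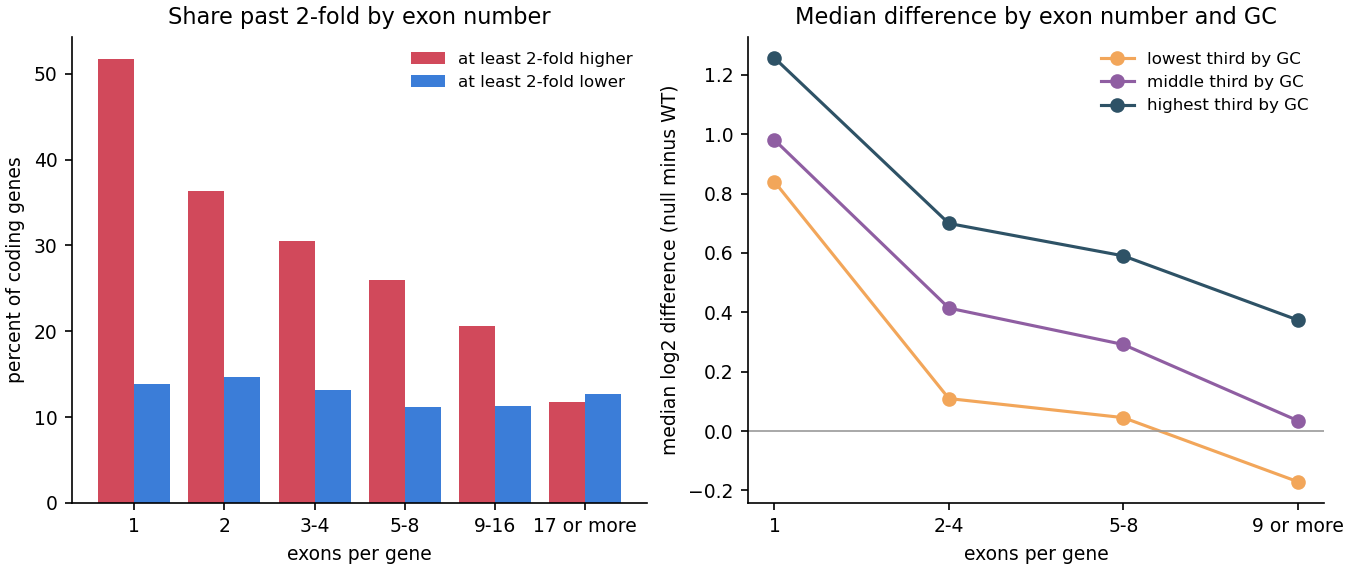
Left: percent of coding genes other than histones that were at least 2-fold higher (red) or lower (blue) in the MTR4-null nucleus, by number of exons. Right: median log2 difference by exon number within each of 3 equal groups by GC content, from 1.26 for single-exon genes of high GC to -0.17 for genes of low GC with 9 or more exons.

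Genes with a single exon in their longest coding transcript, named by the fixed rules for naming genes, included several regulators. The AP-1 transcription factor gene Jund was at 11.8 and 125 FPKM, Junb at 0.386 and 18.1 FPKM and Ier2 at 1.30 and 10.4 FPKM. Exosc6, an exosome subunit gene, was at 6.60 and 77.9 FPKM, the retrocopy of a cleavage factor gene Cstf2t at 7.80 and 27.9 FPKM, the spliceosome subunit gene Sf3b5 at 43.3 and 144 FPKM, and the tubulin cofactor gene Tbcc at 12.4 and 40.8 FPKM. Not all behaved so: the meiotic kinase gene Mos was at 246 and 331 FPKM, the RNA-binding protein gene Pcbp1 at 166 and 201 FPKM, and the olfactory receptor gene Olfr262 at 10.54 and 0.110 FPKM.

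Genes of the X chromosome lay below those of the autosomes. Of 414 X-linked coding genes 24.2% were lower and 16.9% higher, with a median of -0.20, against 11.7% and 23.4% of 12135 autosomal coding genes with a median of 0.22. X-linked genes also had a lower median GC content, 45.6% against 50.1%. Within GC groups 2 and 3 of the 5, combined, the medians were -0.08 and 0.08, with 19.4% of 155 X-linked and 12.4% of 4853 autosomal genes lower, so that the gap was smaller but in the same direction. Ccnb3, a cyclin of meiosis, was at 19.4 and 2.59 FPKM, Dkc1, the pseudouridine synthase of H/ACA RNPs, at 51.3 and 12.2 FPKM, and the sterol enzyme gene Nsdhl at 20.8 and 5.04 FPKM. Emd, of the nuclear envelope, went the other way at 6.40 and 15.0 FPKM.

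The machinery MTR4 belongs to was mostly between the 2-fold limits. Of 10 genes of MTR4 and its adaptor complexes, Skiv2l2 itself was lower and Zfc3h1, the scaffold of the adaptor complex that targets polyadenylated nuclear RNA, was higher at 10.3 and 22.7 FPKM, a difference of 1.07 that was 0.88 after centring and so no longer past 2-fold. The exosome adaptor genes Zcchc8 (103 and 80.5 FPKM), Rbm7 (55.6 and 59.5 FPKM) and Zcchc7 (15.6 and 8.51 FPKM) were in between. Of 14 exosome genes 4 were higher (28.6%, near the 24.8% of all genes) and 0 lower: Exosc6, Exosc7 at 26.7 and 61.5 FPKM, Exosc2 at 6.27 and 13.9 FPKM, and the cofactor gene C1d at 0.873 and 3.37 FPKM. Nuclear catalytic subunit gene Exosc10 was at 29.2 and 15.2 FPKM and Dis3 at 3.66 and 4.66 FPKM. After centring the exosome list had 2 higher and 2 lower genes.

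Among the factors that end transcripts, 6 of 21 cleavage and polyadenylation genes were higher (28.6%, near the 24.8% of all genes) and 1 was lower, with a median of 0.59 (0.40 after centring). Cstf3, a subunit of the cleavage stimulation factor, was at 11.5 and 73.5 FPKM, Nudt21, which guides the choice of poly(A) site, at 14.8 and 61.7 FPKM, and Rbbp6 at 9.34 and 34.8 FPKM. Of 14 Integrator genes, whose complex ends snRNA and other short transcripts, 3 were higher (21.4%) and 1 was lower (7.14%). Over all genes the shares were 24.8% and 12.7%. The higher ones were Ints5 at 3.81 and 24.3 FPKM, Ints7 at 1.72 and 5.49 FPKM, and Cpsf3l at 5.65 and 13.8 FPKM. Ints12 was lower at 41.3 and 17.8 FPKM. Genes of RNA polymerase I and its factors were split, with 6 of 20 higher (30%) and 5 lower (25%). The subunit gene Polr1c was at 3.81 and 30.9 FPKM and the factor gene Ubtf at 8.67 and 40.1 FPKM, while Taf1d was at 33.5 and 7.01 FPKM. RNA polymerase II and elongation factors had 5 of 33 higher (15.2%) and 1 lower (3.03%). Among the higher ones were Cdk9 at 6.46 and 32.3 FPKM and Cdk13 at 11.6 and 53.3 FPKM.

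Lists of splicing and translation machinery had smaller shares past 2-fold than the background of 24.8% and 12.7%. The exception was the share of higher genes among mitochondrial ribosomal proteins, which was close to it. Among coding genes other than histones both shares were smaller at high level. At a mean of 5 to 10 FPKM 30.7% were higher and 11.7% lower. At 20 to 50 FPKM these were 17.3% and 5.69%, and at 100 to 500 FPKM 6.61% and 4.52%. The part of level in the shares of these and other lists was not tested. Of 56 core spliceosome genes 7 were higher and 3 lower, with Cdc5l at 23.8 and 104 FPKM. SR and hnRNP genes had 4 of 41 higher and 0 lower. Ribosome assembly factors had 9 of 63 higher and 4 lower, and translation factors 9 of 61 higher and 3 lower. Cytosolic ribosomal protein genes, with a median of 0.51, had 16 of 87 higher and 1 lower, and mitochondrial ones 19 of 76 higher and 2 lower with a median of 0.41, or 12 higher and 3 lower after centring. Mrps26 was at 6.14 and 49.6 FPKM, Mrpl43 at 6.48 and 52.0 FPKM, and Mrpl48, one of the 2 that were lower, at 176 and 71.2 FPKM. Members of oxidative phosphorylation were higher in 18 of 79 cases (22.8%) and lower in 4 (5.06%), with Atp5e at 133 and 490.1 FPKM. Nonsense-mediated decay genes had 1 of 14 higher (Smg5, 8.35 and 26.3 FPKM) and 1 lower (Upf3b, 8.88 and 2.66 FPKM).

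**Figure D4:**
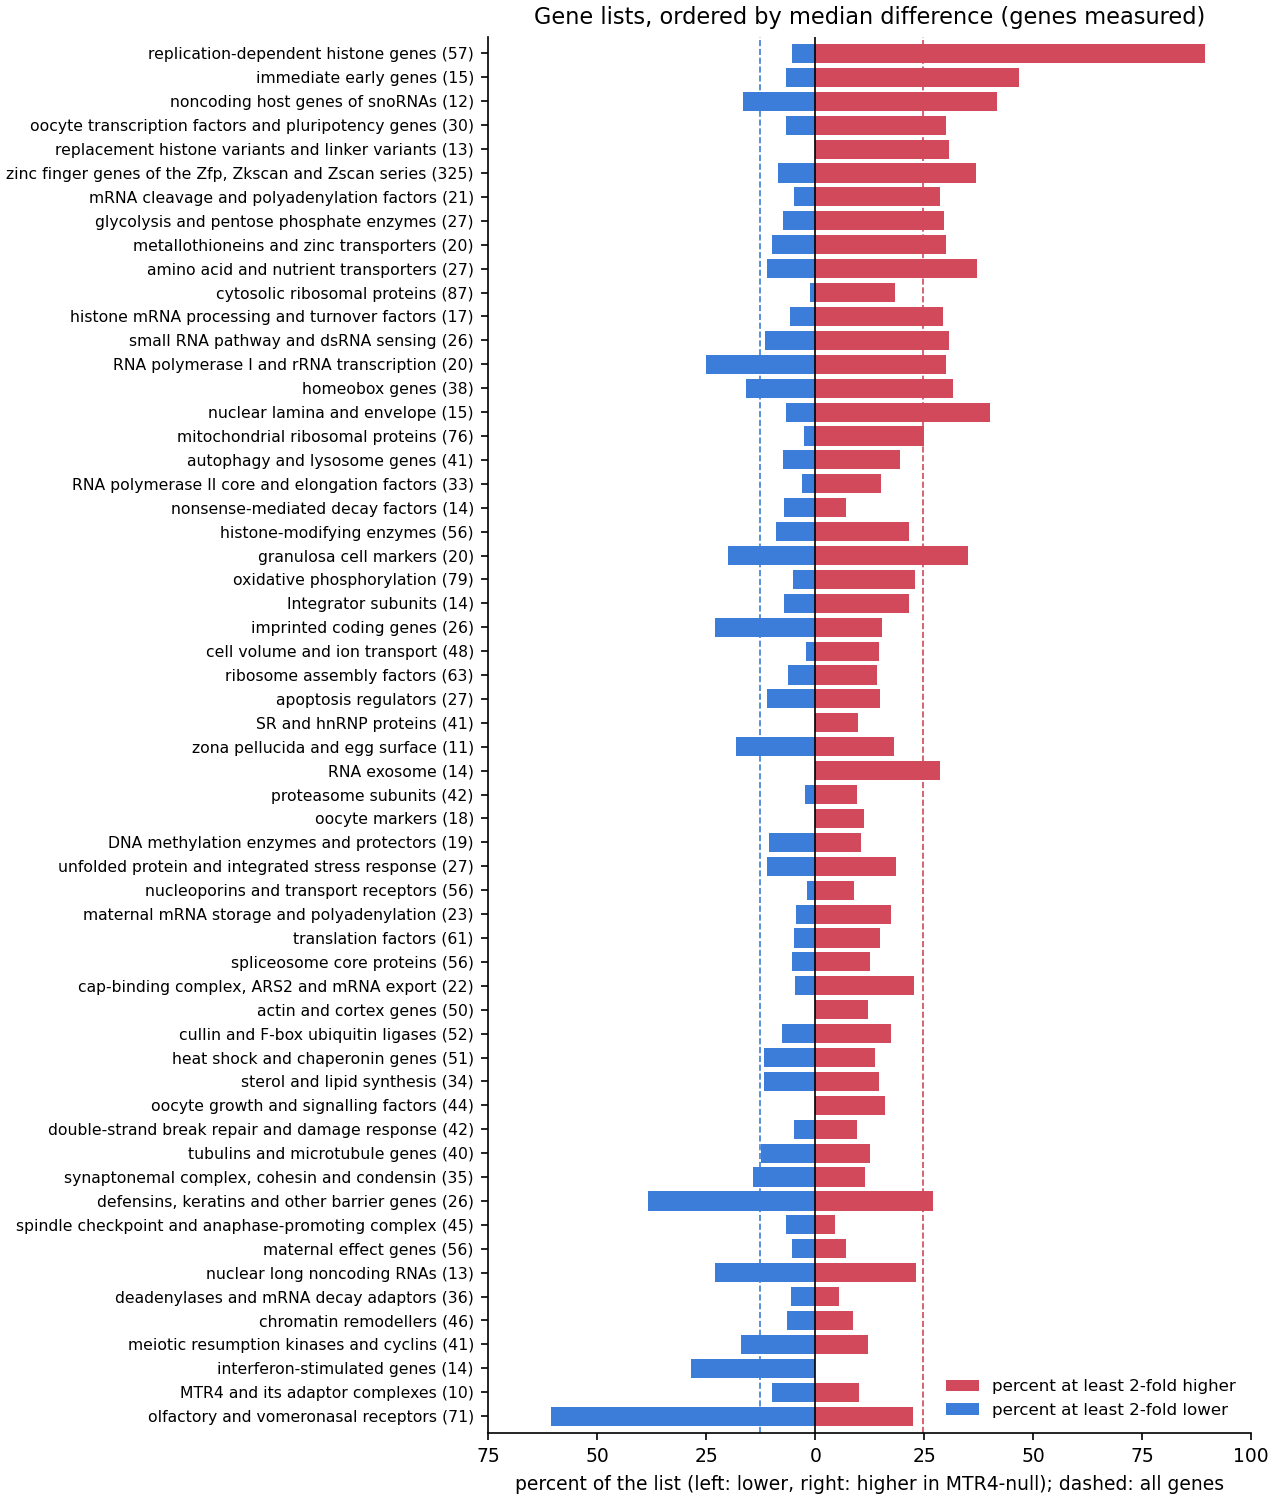
For each gene list of at least 10 measured genes, the percent of members at least 2-fold higher (red, to the right) and at least 2-fold lower (blue, to the left) in the MTR4-null nucleus, ordered by median difference, with the number measured in brackets. Dashed lines mark the same shares over all 13805 genes; histone genes reach farthest right at 89.5% and olfactory and vomeronasal receptors farthest left at 60.6%.

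The study's title concerns the volume of oocytes, so genes of cell volume and ion transport were listed. Of the 76 listed, 48 were measured, 7 of them higher and 1 lower, shares of 14.6% and 2.08% against the background of 24.8% and 12.7%, with a median of 0.31. Fxyd6, a small membrane regulator of ion transport, was at 0.234 and 9.23 FPKM, the lysosomal chloride transporter gene Clcn7 at 5.23 and 18.03 FPKM, the kinase gene Oxsr1, which acts on cation-chloride cotransporters, at 3.40 and 10.2 FPKM, and the cotransporter gene Slc12a2 at 9.58 and 24.3 FPKM. Slc6a9, the glycine transporter by which oocytes and early embryos control their volume, was in between at 141 and 176 FPKM. Among 27 amino acid and nutrient transporter genes 10 were higher (37.0%) and 3 lower (11.1%). Of the 27, 8 reached 1 FPKM in MTR4-null alone and 2 in WT alone, so the choice by level adds to both counts. Slc38a10 was at 2.54 and 20.3 FPKM and the HDL receptor gene Scarb1 at 15.5 and 5.18 FPKM. Of 20 metallothionein and zinc transporter genes 6 were higher (30%) and 2 lower (10%), near the shares over all genes. Besides Mt1 the zinc importer gene Slc39a1 was at 1.61 and 26.7 FPKM, and Slc30a3 was at 144 and 225 FPKM.

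Of 44 oocyte growth and signalling genes 7 were higher (15.9%) and 0 lower, beside 24.8% and 12.7% of all genes. Their median of 0.10 turned to -0.09 after centring. Rptor, of the growth-regulating mTOR complex, was at 3.99 and 20.7 FPKM, Taf4b at 5.60 and 16.4 FPKM and Smad5 at 7.66 and 19.6 FPKM, while the oocyte growth factor genes Gdf9 (1800.2 and 2133 FPKM) and Bmp15 (874 and 639 FPKM) were in between. Glycolysis and pentose phosphate genes were higher in 8 of 27 cases (29.6%) and lower in 2 (7.41%), beside 24.8% and 12.7% of all genes. Pgd was at 8.07 and 43.8 FPKM and Pfkp at 10.3 and 1.88 FPKM.

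Of 56 maternal effect genes 4 were higher (7.14%) and 3 lower (5.36%), with a median of -0.07. Over all genes the shares were 24.8% and 12.7% and the median 0.22, for comparison with each list of this paragraph. After centring 1 was higher and 5 were lower. Padi6 and Nlrp5, at 314 and 690.0 FPKM, both belong to the egg's cytoplasmic lattices and were higher as deposited, but at 0.86 and 0.93 on the log2 scale after centring they were not. Ezh2, the H3K27 methyltransferase gene, was at 196 and 53.8 FPKM and Nlrp2 at 112 and 45.7 FPKM. Genes of meiotic resumption were higher in 5 of 41 cases (12.2%) and lower in 7 (17.1%), with a median of -0.19. The protein kinase A catalytic subunit gene Prkaca was at 9.74 and 43.9 FPKM and Ppp2cb at 4.01 and 22.1 FPKM, while Ccnh was at 12.4 and 2.45 FPKM and Ccnb1 at 294 and 256 FPKM. In the list of the synaptonemal complex, cohesin and condensin 4 of 35 were higher (11.4%) and 5 lower (14.3%). The counts became 2 and 9 after centring. The spindle checkpoint and anaphase-promoting complex list had 2 of 45 higher (4.44%) and 3 lower (6.67%), with a median of -0.06. The axis gene Hormad1 was at 13.1 and 0.315 FPKM and the meiotic cohesin gene Rad21l at 0.345 and 9.56 FPKM. Among repair genes Brca1 was at 39.5 and 10.3 FPKM and Chek2 at 9.40 and 1.38 FPKM, and 4 of 42 were higher and 2 lower. Transcription factor and pluripotency genes of the oocyte had 9 of 30 higher (30%) and 2 lower (6.67%) with a median of 0.71. Over all genes the shares were 24.8% and 12.7%. Of the 30, 6 reached 1 FPKM in MTR4-null alone and 2 in WT alone. In this list Zscan4d was at 0.239 and 15.1 FPKM, Gabpa at 0.672 and 8.45 FPKM and Nobox, a regulator of oocyte genes, at 197 and 114 FPKM.

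Histone-modifying enzymes were higher in 12 of 56 cases (21.4%) and lower in 5 (8.93%), near the shares over all genes of 24.8% and 12.7%, with Ehmt2 at 3.42 and 16.04 FPKM and Kdm1b, needed for maternal imprints, at 105 and 229.6 FPKM. Of chromatin remodellers, 4 of 46 were higher (8.70%) and 3 lower (6.52%), with a median of -0.12. Among DNA methylation genes Dnmt1 was at 882 and 1201 FPKM and Dnmt3a at 47.8 and 21.004 FPKM, the latter being lower. Genes of the nuclear lamina and envelope were higher in 6 of 15 cases (40%) and lower in 1 (6.67%). Sun2 was at 0.335 and 12.99 FPKM, Lemd2 at 6.39 and 54.0 FPKM and Lemd3 at 1.93 and 11.8 FPKM. The lamin gene Lmna was at 81.0 and 54.9 FPKM and Syne1 at 9.81 and 3.40 FPKM.

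Stress and defence genes did not move as one. Immediate early genes were higher in 7 of 15 cases (46.7%) and lower in 1 (6.67%), beside 24.8% and 12.7% of all genes. Their median of 0.92 ranged from 0.10 to 1.49 over the alternative settings. Of the 15, 8 were at 1 FPKM or more in both columns, 5 in MTR4-null alone and 2 in WT alone. Interferon-stimulated genes had 0 of 14 higher and 4 lower (28.6%, beside 12.7% of all genes). Their median of -0.26 ranged from -0.60 to 0.54 over the alternative settings. Of the 14, 9 were at 1 FPKM or more in both columns, 3 in WT alone and 2 in MTR4-null alone. The lower ones were Isg15 at 4.40 and 1.45 FPKM, Oas3 at 21.3 and 8.65 FPKM, Oas2 at 2.19 and 0.355 FPKM, and the nucleic acid sensor gene Zbp1 at 13.3 and 4.40 FPKM. Irf1 was at 66.7 and 97.3 FPKM. The list of unfolded protein and stress response genes had 5 of 27 higher (18.5%) and 3 lower (11.1%). Xbp1 was at 1.16 and 9.94 FPKM and Eif2ak2, the double-stranded RNA-activated kinase gene, at 8.94 and 1.79 FPKM. Small RNA pathway genes had 8 of 26 higher (30.8%) and 3 lower (11.5%), near the 24.8% and 12.7% of all genes. There the PIWI protein gene Piwil2 was at 4.07 and 30.5 FPKM, Piwil1 at 20.6 and 5.49 FPKM, and Dicer1 at 103 and 102 FPKM.

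Zinc finger genes with symbols in Zfp, Zkscan or Zscan were the list with most measured genes. Of 325, 120 were higher (36.9%) and 28 lower (8.62%), beside 24.8% and 12.7% of all genes, with a median of 0.60. After centring the counts were 102 and 33 and the median 0.46. Of the 325, 258 were at 1 FPKM or more in both columns. Homeobox genes had 12 of 38 higher (31.6%) and 6 lower (15.8%), most at low level. Of the 38, 18 were at 1 FPKM or more in both columns, 14 in MTR4-null alone and 6 in WT alone. Six5 was at 0.208 and 18.5 FPKM and Hoxd8 at 0.219 and 13.1 FPKM. Of the oocyte-expressed Obox genes Obox2 was at 139 and 230.2 FPKM and Obox5 at 307 and 213 FPKM.

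Long noncoding RNA genes, by their RefSeq gene type, were past 2-fold more often than coding genes in either direction: 263 of 731 (36.0%) were higher and 137 (18.7%) lower, against 23.5% and 12.05% of 12606 coding genes. Of the long noncoding genes 411 were at 1 FPKM or more in both columns. Predicted or clone-named transcripts with the largest differences were A930018P22Rik at 5.38 and 149.8 FPKM, 2510039O18Rik at 2.19 and 62.4 FPKM, 1700120C14Rik at 1.11 and 37.3 FPKM and Gm12238 at 6.98 and 111 FPKM upward, and A630095E13Rik at 23.2 and 2.01 FPKM and 1600002D24Rik at 36.5 and 4.102 FPKM downward. Well-known nuclear RNAs were split: Tug1 was at 11.5 and 36.0 FPKM, Malat1 at 181 and 173 FPKM, and Neat1, the scaffold of paraspeckles, at 3.82 and 0.588 FPKM. Imprinted antisense RNA Kcnq1ot1 was at 16.05 and 6.27 FPKM. Noncoding genes that carry snoRNAs in their introns were higher in 5 of 12 cases (41.7%) and lower in 2 (16.7%), beside 24.8% and 12.7% of all genes. Snhg3 was at 2.61 and 25.3 FPKM, Snhg6 at 6.86 and 39.4 FPKM, Snhg5 at 21.03 and 5.47 FPKM and Snhg11 at 7.28 and 0.538 FPKM. The counting is not stated to use strand, so reads of overlapping antisense genes cannot be told apart.

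Small RNA genes made up 58.4% of the summed FPKM of the WT nucleus and 53.8% of that of MTR4-null, most of it from Scarna2, a guide RNA of Cajal bodies, at 361725 and 370466 FPKM. Libraries of 300 to 400 bp fragments do not sample mature small RNAs, and FPKM is unstable for such short genes. Among 110 microRNA genes 77 were higher and 24 lower, yet WT was at 0 for 68 of them and MTR4-null for 10. In the 32 with signal in both columns the median was -0.40, with 9 higher and 14 lower. Likewise the 48 snoRNA and scaRNA genes above 0 in both columns, of 84 measured, had a median of -0.82, with 13 higher and 23 lower. By class, 7 of 11 C/D box genes, 12 of 29 H/ACA box genes and 4 of 7 Cajal body genes above 0 in both were lower, and 1, 9 and 2 were higher. Rnu11, the U11 RNA of the minor spliceosome, was at 79.6 and 1577 FPKM.

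The microRNA genes with the largest differences among those with at least 1 FPKM in the lower and 5 FPKM in the higher column are shown by their mature arms from RefSeq (GRCm38.p6), with the seed, bases 2 to 8, in capitals. The signal at these genes can come from precursors or host transcripts, so it is not a measure of the arms themselves.

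mmu-miR-1199-5p: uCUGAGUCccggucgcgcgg

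mmu-miR-1199-3p: uGCGGCCGgugcucagucggc

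mmu-miR-22-5p: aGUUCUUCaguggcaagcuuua

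mmu-miR-22-3p: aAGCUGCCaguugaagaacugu

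mmu-miR-5133: gCUGGAGCugcggcagcgcag

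mmu-miR-804: uGUGAGUUguuccucaccugga

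mmu-miR-705: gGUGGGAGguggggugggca

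No 2 of these arms share a seed. Mir1199 was at 16.5 and 409 FPKM, Mir22 at 21.6 and 413 FPKM, and Mir5133 at 613 and 10078 FPKM, whereas Mir804 was at 1489 and 50.1 FPKM and Mir705 at 1183 and 57.6 FPKM. Mir1901, for which no arm is shown, was at 9976 and 678 FPKM.

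One set of transcripts was lower almost throughout. Its thresholds were defined after the values were seen, as the 28 RNAs other than small RNAs at 20 FPKM or more in the WT nucleus and below 1 FPKM in the WT cytoplasm. Because both WT columns chose them and enter the ratios, high in the nucleus and low in the cytoplasm, a lower nuclear and a larger cytoplasmic value in MTR4-null are favoured by the choice, and the values are a description. Of the 28 genes, 25 were lower in the MTR4-null nucleus and 0 were higher. The MTR4-null level was a median 33.7% of WT, with the middle 50% of genes between 21.1% and 38.0%. A130077B15Rik was at 397 and 135 FPKM, A630089N07Rik at 336 and 108 FPKM, Zfp488 at 200.3 and 70.7 FPKM, the olfactory receptor pseudogene Olfr856-ps1 at 179 and 59.5 FPKM, the pheromone receptor gene Vmn1r58 at 112 and 43.5 FPKM, and Olfr613 at 89.5 and 32.9 FPKM. Cmah, at 24.9 and 22.2 FPKM, and 4921508A21Rik, at 20.2 and 29.1 FPKM, were among the exceptions.

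The same 28 transcripts, below 1 FPKM in the WT cytoplasm, were measured also in the MTR4-null cytoplasm. Their sum was 11.05 FPKM in the WT cytoplasm and 228 FPKM in the MTR4-null cytoplasm, beside 2094 FPKM and 724 FPKM in the nuclei. In 25 of 28 the cytoplasmic value was larger in MTR4-null. Its level there was a median 34.5% of that in the MTR4-null nucleus, beside 0.746% in WT, where the choice itself keeps the share low. Zfp488, for example, had cytoplasmic values of 0.356 in WT and 15.7 in MTR4-null, in FPKM. The part of the separation of nucleus from cytoplasm in the nuclear differences given above was not tested.

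**Figure D5:**
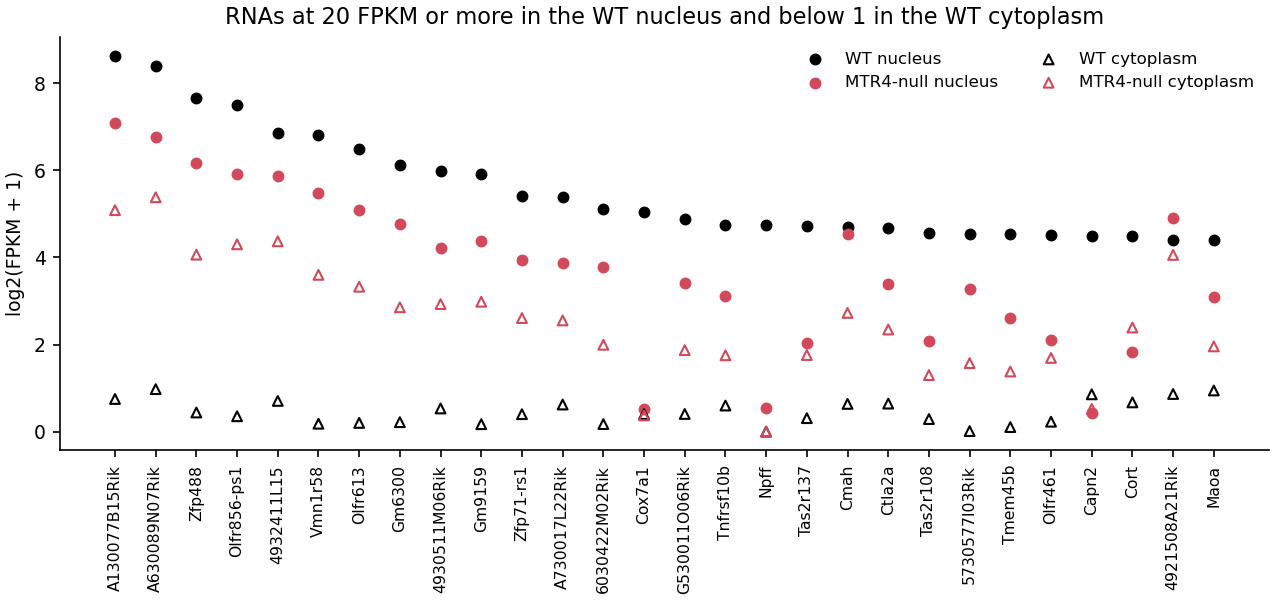
Level of each of 28 RNAs at 20 FPKM or more in the WT nucleus and below 1 FPKM in the WT cytoplasm, as log2(FPKM + 1), in WT (black) and MTR4-null (red) nuclei (circles) and cytoplasms (triangles), 1 pooled value each. Red circles lie below black circles in 27 of 28 genes and red triangles above black triangles in 25.

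Sensory receptor genes made up the list with the lowest median. Of 1448 olfactory and vomeronasal receptor genes 71 reached 1 FPKM in either nuclear column. Of these 43 were lower (60.6%) and 16 higher (22.5%), with a median of -1.34. Over all genes 12.7% were lower and 24.8% higher. Olfr1423 was at 17.4 and 0.693 FPKM. Only 16 of the 71 were at 1 FPKM or more in both columns. Defensin, keratin and other barrier genes had 10 of 26 lower (38.5%) and 7 higher (26.9%), and 8 of the 26 were at 1 FPKM or more in both columns.

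The cytoplasm gave a separate view of the same genes, since its columns share no sample with the nuclear ones. Over the 13805 genes 14.3% were higher and 21.4% lower in the MTR4-null cytoplasm. Of the 3417 genes that were higher in the nucleus, 1368 (40.04%) were higher in the cytoplasm too and 71 (2.08%) were lower. Those 1368 were 69.3% of all genes that were higher in the cytoplasm. Of the 1753 that were lower in the nucleus, 723 (41.2%) were lower in the cytoplasm and 105 (5.99%) were higher, and the 723 were 24.5% of those lower in the cytoplasm. The 2 differences had a Pearson's r of 0.52 across genes, and genes are no replicates. Nuclear and cytoplasmic libraries of a genotype may come from the same oocytes, which the labels do not say.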

How the data were processed

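RNA-seq of hand-separated nuclei was analysed from a single table of FPKM that the authors deposited, with 1 column for each of 4 combinations of genotype and compartment. Per the submitters' processing notes, the mouse build was mm9 and the tools named are Cufflinks 2.2.1 and TopHat2 2.1.1. How libraries were combined is not stated: 58.9% of WT and 56.0% of MTR4-null nuclear values above 0 end in the repeating decimals left by division by 3, while the labels list 3 and 2 libraries. Depth is unknown. The unnamed last row holds the column sums and was left out.

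Differences were computed on log2(FPKM + 1) with numpy 2.4.6 and pandas 2.3.3, with a pseudocount of 1 and a minimum of 1 FPKM in either nuclear column. This scale understates differences of low genes. The counting was tested on simulated data. Exon number, length, GC content and gene type came from GENCODE M21 and RefSeq on GRCm38 by symbol, for 99.8% of coding genes, and serve only as gene properties because the builds differ. No coordinates of the table were used.

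Outside predicted models and small RNAs, named genes were the 12 largest differences each way (5 FPKM or more in the higher, 1 or more in the lower column), up to 6 at 20 FPKM or more with under 0.1 in the other column, and the 6 largest linear gains and losses. Further names were the 4 largest each way among predicted models and among small RNAs, and from each of 62 gene lists up to 4 members by size, 2 by level, and all members where under 20 were measured. Genes of the set confined to the WT nucleus, Fshr, Hist1h1b, Scarna2, Hist1h1t, Hist1h3e, Hist1h3i, Hist2h3b, Hist1h4i, Hist1h4b, Hist1h1c, Hist1h2ai, Hist1h2bl and the other paired H2A and H2B genes were named after their values were seen. The comparison and the lists were chosen with earlier results of these data known. Alternatives were other pseudocounts, filters and scalings.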

Additional observations from a re-analysis of the deposited data

Results flagged for a closer look

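Of the genes chosen by the naming rules, 17 were at least 2-fold apart in opposite directions in the nucleus and in the cytoplasm. Whether the 2 differences of a gene differ was not tested, since each column is 1 pooled value. Higher in the MTR4-null nucleus and lower in its cytoplasm were 4 genes. Mir22 had a nuclear difference of 4.20 and a cytoplasmic one of -5.86 on the log2(FPKM + 1) scale, with 911 FPKM in the WT cytoplasm and 14.7 FPKM in the MTR4-null cytoplasm. Msi2, a regulator of mRNA translation, had 2.39 and -1.10, the translation factor gene Eif2b2 had 1.60 and -1.57, and Rdbp had 1.36 and -1.08.

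The other 13 were lower in the nucleus and higher in the cytoplasm. The mitochondrial tRNA synthetase gene Lars2 had -1.08 and 2.80, at 436 FPKM in the WT cytoplasm and 3039 FPKM in the MTR4-null cytoplasm. Among small RNA genes Snora5c had -3.96 and 4.003, and Mir1901 had -3.88 and 3.22. Noncoding genes were Kcnq1ot1 with -1.23 and 1.46, Snhg11 with -2.43 and 1.14, and Snhg5 with -1.77 and 1.39. The imprinted gene Peg3 had -2.13 and 1.14. Sensory receptor genes were Olfr1423 with -3.44 and 1.20, Olfr856-ps1 with -1.57 and 3.95, and Vmn1r58 with -1.34 and 3.42. Tnfrsf10b, a death receptor gene, had -1.65 and 1.15, and the interferon-stimulated genes Isg15 and Zbp1 had -1.14 and 1.74, and -1.40 and 1.13. Isg15 was listed at 0 in the WT cytoplasm.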

How the results depend on the processing

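No paired analysis was possible because the table holds 1 pooled column per group, and for the same reason no replicate could be left out. The counts of genes past 2-fold, 3417 higher and 1753 lower as deposited, became 1735 and 598 with a pseudocount of 5, 2138 and 903 with 1 FPKM or more required in both columns, and 2525 and 1018 with 5 FPKM or more in either. Scaling moved the balance more than the total: 2838 and 2139 after centring, 2738 and 2054 with small RNA genes left out and the columns rescaled, and 2518 and 2596 after quantile normalization. The median over all genes was 0.0398 after centring, 0.0415 after rescaling, -0.0657 after quantile normalization, and 0.0768 with all genes above 0 kept. The median of the olfactory and vomeronasal receptors was 0.0445 with all genes above 0 kept, against -1.34, as that setting adds genes near 0. Of 498 named genes 290 were at least 2-fold apart; 264 of them stayed so in the same direction after centring, 255 after quantile normalization and 220 with a pseudocount of 5, and 0 changed sign under any setting. Of 61 lists with a median, 29 were above 0 and 7 below 0 under every setting run, and 12 above 0 as deposited were below 0 after centring. The histone median stayed between 1.96 and 3.32, that of single-exon genes between 0.47 and 1.38, and that of X-linked genes between -0.52 and -0.09.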
